A study of Mus musculus with 2 samples.

Results

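Cycling CD8 T cells are cytotoxic T lymphocytes caught while they copied their DNA or divided. They were described here from single-cell RNA counts of immune cells in mouse liver tumours. A cell barcode was taken as such a cell when it held at least 500 UMIs (unique molecular identifiers, each standing for 1 captured RNA molecule), 250 or more genes and no more than 10% of UMIs from mitochondrial genes. It also needed at least 2 UMIs of Cd8a and Cd8b1 together, at least 1 UMI of the CD3 genes Cd3d, Cd3e and Cd3g, at least 2 UMIs of Mki67 and Top2a together, no Foxp3 UMI and at most 2 UMIs of C1qa, C1qb and C1qc. This gave 599 cells, of 3005 that passed the same gate with any number of UMIs of Mki67 and Top2a, of 21998 barcodes that passed the cell filters and of 23456 barcodes in all. The DMSO library held 241 of the cycling cells and the STK library 358. The 2022 gated CD8 cells with no UMI of Mki67 or Top2a, 840 in the DMSO and 1182 in the STK library, are called non-cycling below. The remaining 384 gated cells had exactly 1 such UMI.

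The study concerns SOAT1, the enzyme that esterifies cholesterol, and the receptor GPR132. Hepatocellular carcinomas were taken after gavage from mice of genotype MYC-ON that had received either DMSO or STK, a treatment that the labels name without describing it. Live CD45-positive cells were sorted, and 1 droplet library was made for each treatment with the same batch label. The number, sex and age of the animals behind each library, and the allele or promoter behind MYC-ON, are not given in the labels used here. With 1 library per treatment there is no test of the treatment, no p-value is given, and every interval is a 95% interval for counting error only.

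CD8 T cells divide after their receptor meets antigen, and tumours usually hold dividing CD8 cells beside resting memory-like and exhausted cells. Entry into S phase is driven by E2F factors, which switch on the genes for DNA copying, while the later G2/M genes are held down in resting cells and released by the B-Myb and FoxM1 factors through CCAAT and CHR elements in their promoters. Dividing T cells also raise nucleotide, amino acid and sterol synthesis, and lower genes that keep resting T cells alive and circulating, such as the interleukin 7 receptor.

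The DMSO library held 79322966 UMIs in 11784 barcodes and the STK library 81859811 UMIs in 11672. The libraries shared 203 barcodes. Of the cycling CD8 cells, 7 in the DMSO and 8 in the STK library carried a barcode that also occurred in the other library, and no barcode was a cycling CD8 cell in both. Cells were sexed by Xist, which is expressed from the inactive X chromosome of females, and by 4 Y-linked genes. Of the cycling cells that could be sexed, 9.46% of 148 in the DMSO library and 75.9% of 261 in the STK library were female. The sex mix and the treatment therefore cannot be told apart in the pooled values, and values within cells of a sex are given beside the results they touch. Both Xist and Y-linked UMIs were found in 2.07% of the DMSO and 8.94% of the STK cycling cells, against 1.07% and 2.20% of the non-cycling cells.

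The markers of the label were read from all cycling cells. Stmn1, which regulates microtubules and was not part of the gate, had 346 CPM (the UMIs of a gene scaled to the same total in every group) in the DMSO and 402 CPM in the STK cycling cells, against 25.0 and 30.4 CPM in the non-cycling cells. A Stmn1 UMI was found in 80.5% and 88.5% of the cycling cells and in 7.62% and 9.39% of the non-cycling ones. Mki67, the Ki-67 proliferation antigen, stood at 472 and 474 CPM, and Top2a, the topoisomerase that untangles DNA before mitosis, at 572 and 514 CPM. Cd8a, the CD8 alpha chain, had 633 and 506 CPM, and Cd8b1, the beta chain, 789.9 and 639 CPM. Both chains were seen in 88.8% and 88.3% of the cells, and a Cd4 UMI in 4.15% and 7.54%. The values of Mki67, Top2a, Cd8a and Cd8b1 chose the cells and cannot be read as a check of the name. The gate used neither Stmn1 nor Cd4. Of the selected cells, 54 in each library sat just inside the limit with exactly 2 Mki67 and Top2a UMIs, and 153 and 231 sat just outside it with exactly 1. The median was 7 in the DMSO and 10 in the STK library, and the highest values were 48 and 51.

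RNA of other cell types was counted with marker lists. The lists for endothelial or stromal cells, red cells, CD4 cells and gamma-delta T cells summed to less in the STK than in the DMSO cycling cells, with Col1a1, Col3a1 and Dcn at 0 in both. The macrophage or monocyte list summed to 297 CPM in the DMSO and 712 CPM in the STK cycling cells, and 5 of its 9 genes were at least 1.5 times higher. The NK list summed to 114 and 143 CPM, with 4 of 5 genes at least 1.5 times higher. The dendritic cell list went from 634 to 1689 CPM (4 of 9 genes), the neutrophil list from 38.9 to 713 CPM (6 of 6), the hepatocyte or tumour list from 1393 to 2793 CPM (8 of 8), and the B or plasma cell list from 14.3 to 452 CPM (5 of 6). Most of that last sum was Jchain, an antibody joining protein, found in 1.40% of the STK cycling cells. In the non-cycling cells the macrophage or monocyte sums were 694 and 847 CPM and the hepatocyte sums 374 and 988 CPM, while the B or plasma cell sums went the other way, from 528 to 52.98 CPM. The neutrophil sums there were 23.9 and 259 CPM and the dendritic cell sums 926 and 1477 CPM. Their part in the results was not tested, so the main values are repeated for a stricter set. That set leaves out every cell with UMIs of another blood lineage above a low limit, a high doublet score or RNA of both sexes, and keeps 170 of 241 DMSO and 216 of 358 STK cycling cells. It leaves out 29.5% and 39.7% of the cycling cells, against 16.3% and 20.7% of the non-cycling cells. It sets no limit on hepatocyte RNA.

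How large was the cycling share in each library? Among gated CD8 cells, 241 of 1234 (19.5%, interval 17.4 to 21.9) cycled in the DMSO library and 358 of 1771 (20.2%, 18.4 to 22.2) in the STK library. The ratio was 1.04 with an interval from 0.877 to 1.22, so the difference was within counting error. Cycling cells were 2.16% of all filtered cells in the DMSO and 3.30% in the STK library, at a ratio of 1.53 (1.29 to 1.81). Gated CD8 cells as a whole moved by about as much, from 11.1% to 16.3% of filtered cells, a ratio of 1.48.

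The share depends on depth, because a deep cell reaches 2 UMIs more easily. Cycling cells held a median of 9012 UMIs in the DMSO and 9918 in the STK library, against 3795 and 3499 in the non-cycling cells. Median genes per cell were 2824 and 2990 against 1462.5 and 1425.5. When every gated cell was thinned to 2000 UMIs, with 100 DMSO and 146 STK cells too shallow to use, 128 of 1134 (11.3%, 9.50 to 13.3) and 181 of 1625 (11.1%, 9.65 to 12.8) still had 2. The ratio was then 0.987 (0.783 to 1.25). In the same measure Treg cells stood at 12.1% and 11.4%, CD4 cells without Foxp3 at 16.9% and 13.7%, and NK cells at 14.4% and 13.8%. B cells, which rarely divide outside germinal centres and had median depths of 1886.5 and 2207 UMIs before thinning, stood at 1.05% and 5.0%. The intervals of CD8 and Treg cells overlapped in each library. The CD8 shares lay above the B cell values in both, but in the STK library their interval overlapped that of B cells (2.03 to 10.03).

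Within cells of a sex the raw ratios lay on opposite sides of 1, with a male interval that included 1. Among female CD8 cells, 14 of 92 (15.2%, 8.58 to 24.2) cycled in the DMSO and 198 of 709 (27.9%, 24.7 to 31.4) in the STK library, at a ratio of 1.84 (1.07 to 3.42). Among male CD8 cells, 134 of 539 (24.9%, 21.3 to 28.7) and 63 of 323 (19.5%, 15.3 to 24.3) cycled, a ratio of 0.785 (0.572 to 1.07). After thinning the female ratio was 1.90 (0.890 to 4.83) and the male ratio 0.693 (0.434 to 1.08), and both intervals then included 1. The difference between the sexes was not tested.

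**Figure D1:**
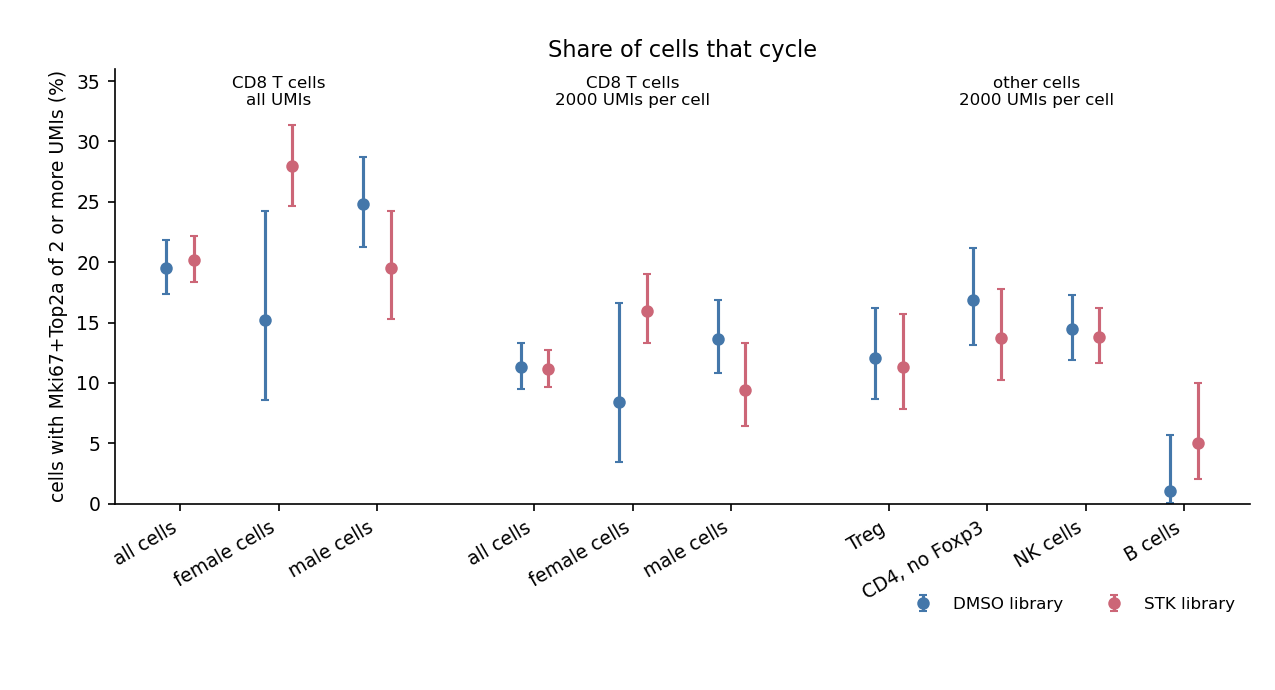
Share of cells with at least 2 Mki67 and Top2a UMIs, in percent, in the DMSO (blue) and STK (red) library, for CD8 T cells with all UMIs, for CD8 T cells thinned to 2000 UMIs, and for 4 other cell groups thinned likewise. Points are shares and bars exact 95% binomial intervals. The pooled CD8 shares of 19.5% and 20.2% overlap, while the female shares of 15.2% and 27.9% lie apart.

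The cell cycle genes set the cycling cells apart most. Of 6076 genes measured in both classes (at least 20 CPM and 20 UMIs in the class where they were higher, in each library), 548 (9.02%) were at least 2 times higher in the cycling cells of both libraries, and 84 (1.38%) at least 2 times lower. The gate used this contrast, so these counts describe the cells and are not a test. When CPM were scaled to genes outside the cell cycle, histone, ribosomal, mitochondrial and receptor segment genes, the numbers were 565 and 147 of 7093. That scaling shifted every log2 ratio by -0.11 in the DMSO and -0.05 in the STK library. The median log2 ratio over all measured genes was 0.19 in the DMSO and 0.08 in the STK library, and the medians of the lists below are to be read against those.

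G1/S genes, which license and copy DNA, were at least 2 times higher for 37 of 39 measured members, with a median log2 ratio of 2.12 in both libraries. Mcm5, a subunit of the replicative helicase, had 161 CPM in the DMSO and 169.9 CPM in the STK cycling cells against 45.7 and 39.3 CPM in non-cycling cells. Rrm2, the ribonucleotide reductase subunit made only for S phase, had 272 and 275 CPM against 11.8 and 8.66 CPM. Tyms, which makes thymidylate, had 200.3 and 184 CPM against 21.0 and 18.3 CPM. For Mcm5, Rrm2 and Tyms the levels were close in the libraries and far above the non-cycling cells. Cdt1, the licensing factor that is destroyed once S phase starts, was among the smallest differences, with 101 and 90.4 CPM against 49.7 and 45.7 CPM. Rpa2, a single-strand DNA binding subunit that resting cells also make, was the other member under 2 times, at 1.79 times in the STK library.

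G2/M genes differed more than G1/S genes. Of 41 measured members, 40 were at least 2 times higher, with medians of 4.31 and 4.25. Cdk1, the kinase that starts mitosis, had 194 and 196 CPM against 7.30 and 5.84 CPM. Cenpf, a kinetochore protein, had 171 and 169 CPM against 2.24 and 3.63 CPM, which is 76.2 and 46.7 times more. Ccna2, cyclin A2, had 255 and 222 CPM against 6.73 and 5.04 CPM. Birc5, the survivin subunit of the chromosomal passenger complex, had 437 and 472 CPM against 8.42 and 14.7 CPM, and its partner kinase Aurkb 122 and 103 CPM against 3.93 and 3.42 CPM. Cdc20, the activator of the anaphase-promoting complex, had 162 and 130.3 CPM against 8.7 and 9.67 CPM. The exception was Pttg1, the securin that holds sister chromatids together, with 90.5 and 87.5 CPM against 98.8 and 119.9 CPM, a level as high in non-cycling CD8 cells.

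Genes outside the fixed lists followed the same line. By the naming rule the highest were Pclaf, a PCNA partner, with 514 and 485 CPM against 14.0 and 10.5 CPM, and Shcbp1, with 71.4 and 54.1 CPM against 0.561 and 1.61 CPM. Esco2, which acetylates cohesin in S phase, had 72.6 and 73.8 CPM against 2.53 and 2.42 CPM. Next were the kinetochore genes Knl1, Spc24 and Cenpm, the condensin genes Ncaph and Ncapg, the spindle and midbody genes Kif15, Cep55 and Aspm, and Fbxo5, an inhibitor of the anaphase-promoting complex. Spc24 had 184 and 182 CPM against 10.7 and 9.06 CPM. In all 12 the ratio was above 1 in both libraries, as the rule requires.

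Histone genes were higher in cycling cells as a family, with different levels in the libraries. Of 17 measured replication-dependent histone genes, 15 were at least 2 times higher in cycling cells, with medians of 2.23 and 2.02. Hist1h2ae had 1122 CPM in the DMSO and 547 CPM in the STK cycling cells against 44.9 and 31.6 CPM in non-cycling cells. All genes named Hist summed to 4463 and 2854 CPM against 931 and 690 CPM. These genes are near-identical copies of each other and largely lack poly(A) tails, so the count of a given copy is uncertain. Chromatin and microtubule factors were higher without exception, for 21 of 21 members. Hmgb2, a DNA-bending protein, had 2376 and 2405 CPM against 361 and 429.9 CPM, and Tuba1b, an alpha-tubulin, 2066 and 1924 CPM against 273 and 225 CPM.

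The S and G2/M lists led in about equal numbers of cells. G2/M list UMIs outnumbered G1/S list UMIs in 120 of 241 DMSO cells (49.8%, 43.3 to 56.3) and in 191 of 358 STK cells (53.4%, 48.0 to 58.6), and the intervals overlap. Of these cells, 17 and 21 lay within 2 UMIs of equality. In non-cycling cells, where the median was 3 G1/S and 2 G2/M UMIs, the shares were 25.1% and 30.6%.

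Inhibitors of the cycle did not differ in 1 direction. Of 17 members of the quiescence list, 3 were at least 2 times higher and 2 lower, and the medians were -0.27 and -0.25. The 3 higher members are all inhibitors. Cdkn2c, which blocks CDK4 and CDK6, had 55.1 and 52.1 CPM against 12.9 and 13.9 CPM. Cdkn2a had 38.5 and 20.6 CPM against 8.7 and 4.43 CPM, and Cdkn1c 23.4 and 48.5 CPM against 4.49 and 6.04 CPM. The 2 lower members were Btg1, an antiproliferative factor abundant in resting lymphocytes, with 415 and 465 CPM against 1143 and 1328 CPM, and Pdcd4, a translation inhibitor, with 104 and 95.7 CPM against 234 and 213 CPM. Cdkn1b, the p27 inhibitor of resting T cells, had 104 and 82.9 CPM against 164 and 136 CPM and did not pass the 2-fold limit.

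**Figure D2:**
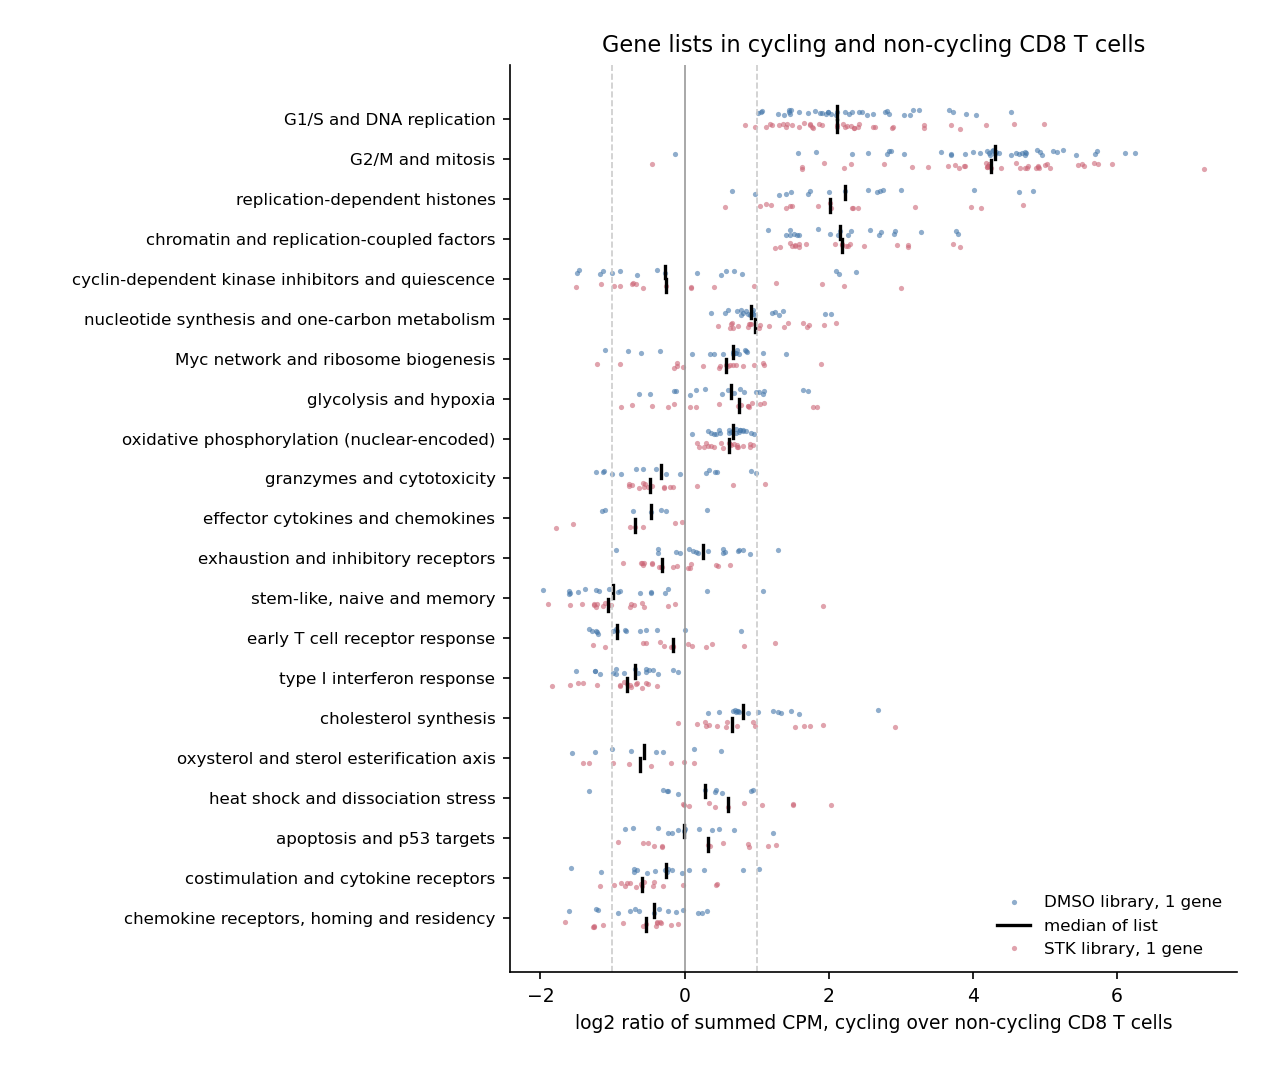
Log2 ratio of summed CPM, cycling over non-cycling CD8 T cells, for each measured gene of 21 lists (points) in the DMSO (blue) and STK (red) library, with the list median as a black bar. Dashed lines mark 2-fold. Mxd3, which had no UMI in non-cycling cells, is not drawn. The G2/M list sits furthest right, with medians of 4.31 and 4.25, and the stem-like, naive and memory list furthest left, with -0.99 and -1.06.

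Cell cycle promoters often carry the elements named above, and the windows here were read for them. Windows of 250 bases before each annotated start, from RefSeq on GRCm38.p6, were searched on both strands for CCAAT, for the CHR element TTTGAA and for the E2F forms TTTGGCGC or TTTCGCGC. Of the 42 genes in each list, 37 G2/M genes and 33 G1/S genes matched. The last 150 bases before the start are shown for the 2 genes that chose the cells, Top2a and Mki67, for the G2/M genes Cdk1 and Cdc20, and for the G1/S gene Mcm5. Each is written 5′ to 3′ on the strand of the gene, with matches to a motif in either orientation in capitals. Top2a lies at chr11:99024190-99024339 on the minus strand, Mki67 at chr7:135716380-135716529 on the minus strand, Cdk1 at chr10:69352913-69353062 on the minus strand, Cdc20 at chr4:118437344-118437493 on the minus strand and Mcm5 at chr8:75109359-75109508 on the plus strand.
Top2a: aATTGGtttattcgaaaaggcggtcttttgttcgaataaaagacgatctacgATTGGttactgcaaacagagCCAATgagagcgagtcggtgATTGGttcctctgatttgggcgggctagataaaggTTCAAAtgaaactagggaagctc
Mki67: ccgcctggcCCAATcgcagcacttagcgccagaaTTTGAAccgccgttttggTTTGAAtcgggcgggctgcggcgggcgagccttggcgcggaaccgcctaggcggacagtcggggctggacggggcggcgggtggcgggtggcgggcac
Cdk1: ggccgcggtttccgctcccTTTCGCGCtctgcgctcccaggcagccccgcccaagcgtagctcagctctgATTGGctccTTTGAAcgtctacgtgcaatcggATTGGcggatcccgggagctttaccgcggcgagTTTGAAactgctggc
Cdc20: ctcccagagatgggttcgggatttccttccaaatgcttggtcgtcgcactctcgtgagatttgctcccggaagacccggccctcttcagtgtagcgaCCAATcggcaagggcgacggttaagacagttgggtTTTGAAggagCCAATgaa
Mcm5: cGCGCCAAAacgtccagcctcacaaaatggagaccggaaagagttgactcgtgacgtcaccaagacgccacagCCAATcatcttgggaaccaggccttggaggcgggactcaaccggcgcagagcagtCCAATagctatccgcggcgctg

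The Top2a window shown holds 4 CCAAT motifs, counting both orientations, and 1 CHR motif. That of Mki67 holds 1 CCAAT and 2 CHR motifs. In Cdc20 there are 2 CCAAT motifs and 1 CHR motif, and in Cdk1 there are 2 of each and 1 E2F form. Mcm5 has 2 CCAAT motifs and 1 E2F form but no CHR motif. Other genes read over the same length differed from these examples. Birc5 held none of the motifs, and Ccnb1, Ccnb2 and Plk1 held CCAAT but no CHR motif, while Kif11 held 1 of each. Among G1/S genes, Cdc6 held none of the motifs, and Mcm3, Pcna, Rrm2 and Uhrf1 held CCAAT but no E2F form. CCAAT was found in 29 of 39 G2/M windows (74.4%) and 22 of 38 G1/S windows (57.9%), against 33.8% of all 32851 windows. The CHR motif was found in 30.8% of the G2/M windows against 16.0% of all windows, and both motifs in 28.2% against 5.55%. An E2F form was found in 6 of 38 G1/S windows (15.8%) against 0.654% of all windows. Of 25 windows of stem-like and memory genes, which were lower in cycling cells, 12% held CCAAT. A match is a run of letters and not a shown binding site.

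Metabolic genes were higher by less than cell cycle genes. Of 20 nucleotide and one-carbon genes, 6 were at least 2 times higher and none lower, with medians of 0.93 and 0.98. Phgdh, the first enzyme of serine synthesis, had 266 and 297 CPM against 107 and 91.0 CPM. Shmt1, which loads one-carbon units from serine onto folate, had 47.2 and 44.8 CPM against 11.5 and 10.5 CPM. The other 4 were Psat1, the next enzyme of serine synthesis, Mthfd1 and Mthfd2, which pass one-carbon units on, and Ctps, which makes CTP. Of 18 glycolysis genes, 3 were at least 2 times higher, with medians of 0.64 and 0.76. Tpi1, triosephosphate isomerase, had 449.9 and 417 CPM against 144 and 121 CPM, and Ldha, lactate dehydrogenase A, 1248 and 1252 CPM against 587 and 582 CPM. The third was Bnip3, a mitophagy receptor. None of 20 nuclear-encoded respiratory chain genes reached 2 times, but their medians of 0.68 and 0.62 lay above those of all genes, and Cycs, cytochrome c, had 379 and 391 CPM against 200.4 and 202 CPM.

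Cholesterol synthesis genes, which bear on the sterol question of the study, were higher for 5 of 16 measured members, with medians of 0.82 and 0.66. Fdps, which makes farnesyl diphosphate, had 65.5 and 85.3 CPM against 23.6 and 27.0 CPM. Fdft1, which makes squalene from it, had 36.9 and 54.3 CPM against 15.7 and 16.3 CPM. Idi1, an enzyme upstream of both, had 32.5 and 36.6 CPM against 13.2 and 12.7 CPM. The cycling levels of these genes were not far above the minimum of 20 CPM.

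Genes of the Myc network, which drives cell growth, were higher for 3 of 20 members and lower for 1, with medians of 0.67 and 0.58. Srm, spermidine synthase, had 228 and 288 CPM against 85.6 and 77.4 CPM. Mxd3, a Max partner made in S phase, had 45.2 and 47.2 CPM and no UMI in either set of non-cycling cells, so no fold is given. The lower member was Mxd4, with 44.4 and 52.7 CPM against 95.1 and 122 CPM. Myc itself had 83.7 and 48.5 CPM against 127 and 52.2 CPM and was not higher in cycling cells.

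Genes of resting, naive and memory T cells formed the main group that was lower. Of 18 measured members, 9 were at least 2 times lower in both libraries and 1 higher, with medians of -0.99 and -1.06. Il7r, the interleukin 7 receptor on which resting T cells live, had 71.0 and 76.7 CPM against 277 and 285 CPM. Bcl2, the survival protein downstream of it, had 73.0 and 54.7 CPM against 219 and 165 CPM. Tcf7, the factor of naive and stem-like T cells, had 83.7 and 80.9 CPM against 233 and 174 CPM, and its relative Lef1 57.1 and 43.6 CPM against 129.9 and 102 CPM. The lymph node homing receptor Ccr7 and the resting-state regulators Bach2, Satb1 and Klf3 were also among the 9. Ccr7 had 121 and 226 CPM against 369 and 538 CPM. The exception was Igfbp4, a binding protein for insulin-like growth factors, with 98.0 and 140.2 CPM against 46.3 and 36.9 CPM.

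By the naming rule the lowest genes outside receptor segments were Tcp11l2, with 11.1 and 13.5 CPM against 68.5 and 82.2 CPM, and Thada, with 21.4 and 17.9 CPM against 87.6 and 76.3 CPM. Il7r, Bcl2, Btg1 and Satb1 were also among the 12. Pim2, a survival kinase, had 24.6 and 27.3 CPM against 72.1 and 75.9 CPM. The others were Nsg2, Pde2a, Ssh2, Sidt1 and Fam241a. All 12 lay on the same side in both libraries, as the rule requires.

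At matched depth the shares of cells with a UMI of these genes pointed the same way. After thinning to 2000 UMIs, Il7r was seen in 10.1% and 12.1% of cycling cells against 33.2% and 31.7% of non-cycling cells, and in 1.05% and 2.14% of B cells. Without thinning, the cycling shares were 25.3% and 34.6%, and the non-cycling shares 45.8% and 42.5%. Tcf7 was seen in 14.8% and 15.8% against 34.0% and 27.4%, and in 1.05% and 1.43% of B cells. Unthinned, Tcf7 was seen in 32.0% and 41.3% of cycling against 48.3% and 39.8% of non-cycling cells, so in the STK library the order turned when the deeper cycling cells were thinned. Read the other way, 4.17% and 5.46% of thinned cells with an Il7r UMI cycled against 14.0% and 13.1% of those without.

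Cytotoxic genes were not higher as a group. None of 16 members passed 2 times in both libraries, and the medians were -0.33 and -0.47. Ccl5, the chemokine that memory and effector CD8 cells store, was 1 of 7 effector cytokine genes that passed, with 3241 and 2821 CPM against 7198 and 8231 CPM. Klrg1, a receptor of effector cells, had 66.6 and 45.4 CPM against 35.1 and 28.6 CPM. The NK receptors Klrd1, Klrc1 and Klrk1 were lower in both libraries without passing the limit together, and Klrd1 had 119 and 157 CPM against 219 and 269 CPM.

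For several effector and checkpoint genes, the sign of the difference in summed CPM depended on the library. Pdcd1, which encodes PD-1, had 320.2 CPM in cycling against 170.3 CPM in non-cycling cells of the DMSO library, and 253 against 316 CPM in the STK library. Lag3, another inhibitory receptor, had 70.6 against 48.8 CPM in DMSO and 32.8 against 59.0 CPM in STK. Prf1, perforin, had 118 against 88.1 CPM and 55.2 against 85.4 CPM. Gzmb, granzyme B, had 789 against 579 CPM and 691 against 838 CPM. In these 4 genes the cycling cells were above the non-cycling cells in the DMSO library and below them in the STK library. Gzma, granzyme A, did the opposite in summed CPM, with 217 against 438 CPM in DMSO and 1051 against 483 CPM in STK. Lag3, Prf1 and Gzma are also among the genes ranked by their STK over DMSO ratio in cycling cells, a choice that favours such a turn. The difference between the libraries was not tested.

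Shares of cells at matched depth did not turn for Pdcd1, Gzmb and Gzma. A Pdcd1 UMI was found in 36.3% of thinned cycling cells in each library, against 18.0% and 30.2% of non-cycling cells and in no thinned B cell. Without thinning the cycling shares were 54.8% and 57.5%. A Gzmb UMI was found in 48.1% and 49.0% against 30.7% and 39.2%, and in 1.05% and 2.14% of B cells. For both genes the STK cycling cells were thus positive more often than the STK non-cycling cells although their summed CPM was lower, and no order is read from them. A Gzma UMI was found in 13.1% and 25.9% of thinned cycling cells against 10.25% and 13.9% of non-cycling cells, with 4.21% and 2.14% of B cells. The cycling cells were thus ahead in both libraries, against the summed CPM of the DMSO library, so no order is read from Gzma either. Without thinning the cycling shares were 27.8% and 37.99%. Gzmk, granzyme K, was seen in 55.3% and 39.7% of thinned cycling cells against 31.5% and 38.3%, with 0% and 0.714% of B cells. Lag3 was seen in 12.2% against 7.88% in the DMSO and in 7.89% against 9.80% in the STK library. Prf1 was seen in 16.9% against 15.9% and in 12.1% against 14.7%. For Lag3 and Prf1 the shares turned as the summed CPM did, but the intervals overlapped in each library, so no order is read from them either.

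Havcr2, which encodes TIM-3 and marks terminally exhausted cells, had 56.7 and 39.4 CPM in cycling against 33.7 and 25.4 CPM in non-cycling cells. Of the 18 measured genes of the exhaustion list, it was the 1 gene at least 1.5 times higher in both libraries, and none passed 2 times in both. The list medians were 0.25 in the DMSO and -0.32 in the STK library. A Havcr2 UMI was found in 30.7% and 25.1% of cycling cells against 9.17% and 7.36% of non-cycling ones before thinning. After thinning the shares were 10.5% and 6.76% against 6.31% and 4.05%, with 2.11% and 2.14% in B cells. Of the cells with a Havcr2 UMI, 42.0% and 41.9% cycled before thinning, and 14.8% and 13.6% after it. Of cells without one, 15.8% and 17.2% cycled before and 11% in each library after thinning. The difference was thus smaller at matched depth, where fewer UMIs of Havcr2, Mki67 and Top2a are left, and the part of depth was not tested.

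**Figure D3:**
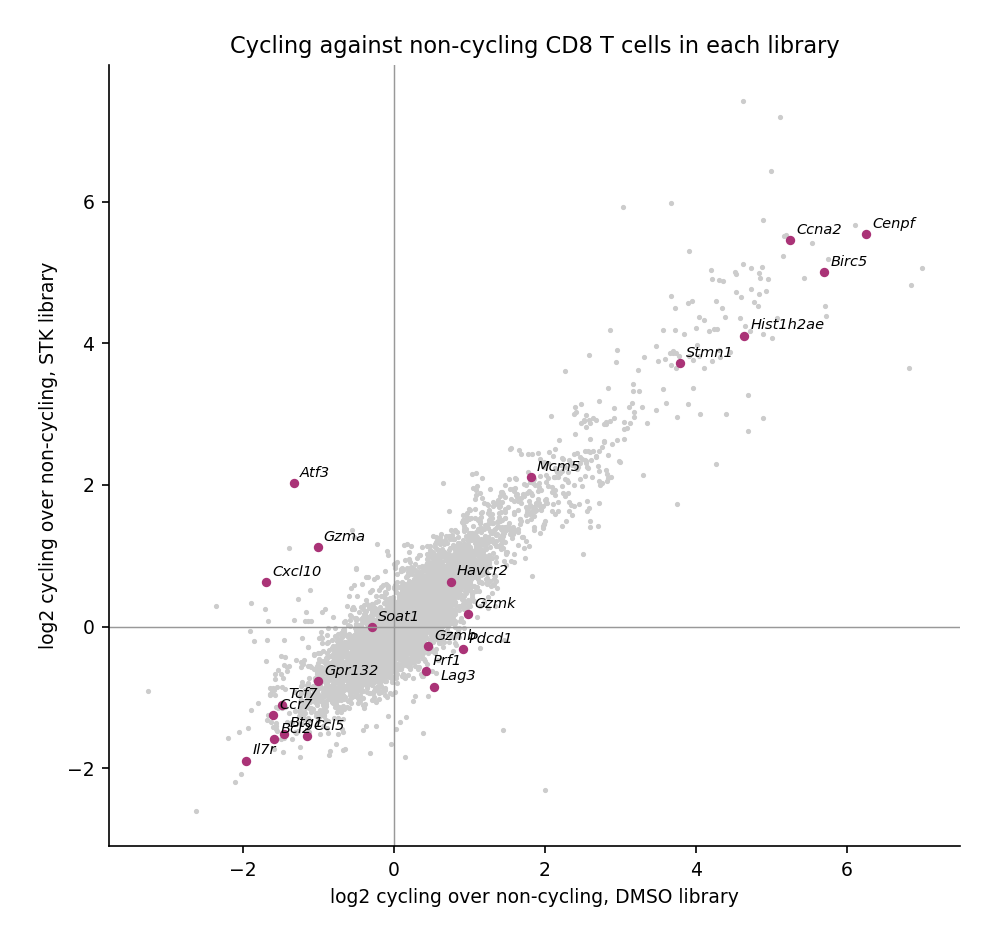
Log2 ratio of summed CPM, cycling over non-cycling CD8 T cells, in the DMSO library (x axis) and the STK library (y axis) for genes measured in both, where each point is 1 gene and named genes are purple. Of the measured genes, 5034 lie on the same side of equality in both libraries. Lag3, Prf1, Pdcd1 and Gzmb lie right of 0 and below it, and Gzma and Atf3 left of 0 and above it.

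Activation and interferon genes were mostly lower or level. Of 15 early T cell receptor response genes, Cd69, the early activation antigen, was the 1 that was at least 2 times lower in both, with 235 and 154 CPM against 541 and 370.0 CPM. The medians were -0.94 in the DMSO and -0.16 in the STK library. Of 17 interferon genes, 4 were lower, namely Ifit1, Ifit3, Ifit3b and Oasl2, all antiviral effectors, with medians of -0.68 and -0.80. Ifit3 had 38.5 and 21.5 CPM against 86.7 and 59.6 CPM. No member of either list was 2 times higher in both libraries. The heat shock (11 measured), costimulation (16) and apoptosis (13) lists had no member past the limit in either direction. Of 15 homing genes, 3 were lower, among them Ccr7 and Cd69.

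The genes the study concerns were not higher in cycling cells. Gpr132 had 43.6 and 117 CPM against 87.8 and 201 CPM, which is 0.497 and 0.585 times the non-cycling level. Soat1 had 24.2 and 30.1 CPM against 29.7 and 30.4 CPM, close to equal in the STK library. Of 8 measured genes around oxysterols and sterol esters, Mylip, a target of the oxysterol receptor LXR, was the 1 past the limit, with 13.1 and 13.1 CPM against 38.7 and 34.6 CPM.

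Expression by the number of Mki67 and Top2a UMIs per cell showed where along this scale the genes differed. The scale is made of the counts that chose the cells, so the curves of cell cycle genes along it are description only. Cells were split at 0, 1, 2 to 3, 4 to 9, 10 to 19 and at least 20 UMIs, with 41 to 840 cells per step in the DMSO and 77 to 1182 in the STK library. Mcm5 reached its full level early, with 45.7, 75.9, 175, 184, 127 and 161 CPM in the DMSO and 39.3, 61.8, 156, 188, 147 and 182 CPM in the STK library. Cdc20 kept climbing, with 8.7, 19, 47.7, 117, 204 and 244 CPM and with 9.67, 13.8, 20.3, 96.4, 158 and 193 CPM. Il7r was already down at 2 to 3 UMIs in the DMSO library, at 277, 197, 77.5, 71.6, 72.0 and 65.0 CPM, and more gradually in the STK library, at 285, 154, 125, 61.2, 65.3 and 80.1 CPM.

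Ccl5 was lower at the top of the scale in the DMSO library, going from 7198 CPM over 7582, 6117, 3568 and 2762 CPM to 1348 CPM. In the STK library it went from 8231 CPM over 8117, 4881, 2636 and 2500 CPM to 2295 CPM. Btg1 ended at 244 CPM in the DMSO and 426 CPM in the STK library, from 1143 and 1328 CPM at 0 UMIs. The steps just outside and just inside the gate differed in both libraries. Stmn1 had 66.4 CPM at 1 UMI and 159 CPM at 2 to 3 UMIs in the DMSO library, and 65.9 and 210.4 CPM in the STK library. Since the steps are cut by the genes of the gate, this difference is no check of the limit. Median depth rose along the same scale, from 3795 to 13660 UMIs per cell in the DMSO and from 3499 to 13268 in the STK library, and its part in these curves was not tested.

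**Figure D4:**
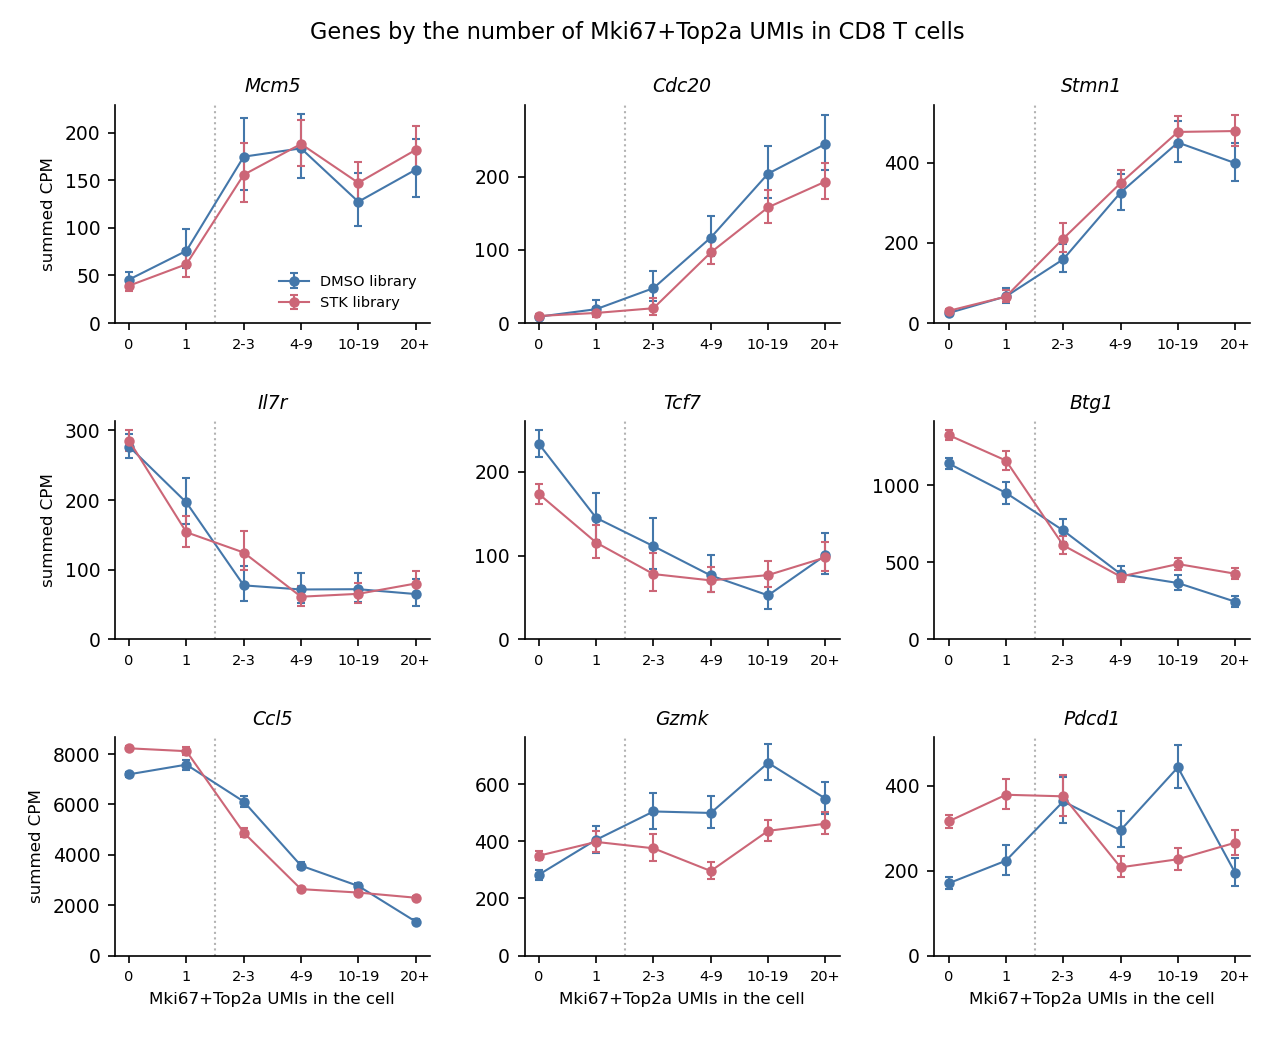
Summed CPM of 9 genes (y axes, from 0) in gated CD8 T cells grouped by their Mki67 and Top2a UMIs (x axes) in the DMSO (blue) and STK (red) library, with exact 95% Poisson intervals, where the dotted line marks the gate at 2 UMIs. Mcm5 levels off after 2 to 3 UMIs, Cdc20 climbs to 244 and 193 CPM, and Ccl5 declines to 1348 and 2295 CPM.

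T cell receptor segments give a rough view of relatedness. A pair of an alpha and a beta variable segment, each with at least 2 UMIs, was called in 210 of 241 DMSO (87.1%) and 201 of 358 STK (56.1%) cycling cells. Such a pair is not a clonotype, since the junction is not read, and 166 pairs occurred in both libraries. Of cycling cells with a pair, 174 (82.9%, 77.1 to 87.7) shared it with another gated CD8 cell in the DMSO library, against 68.7% (65.0 to 72.2) of non-cycling cells. In the STK library the shares were 72.1% (65.4 to 78.2) and 66.6% (62.1 to 70.8), whose intervals overlap. The rate at which pairs were called differs between libraries and with depth, and its part was not tested.

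A few pairs held many of the cycling cells of the DMSO library. Trav16 with Trbv15 was carried by 26 cycling cells of 48 gated cells, against 14 non-cycling ones, and Trav7-3 with Trbv4 by 22 of 72. In the STK library the largest numbers were 8 of 26 cells for Trav14-3 with Trbv13-1 and 7 of 15 for Trav12-3 with Trbv29. The most frequent STK pair, Trav7-5 with Trbv12-2, had 4 cycling cells of 38. Of the repeated pairs with a cycling cell, 57 of 66 in the DMSO and 67 of 78 in the STK library also had a non-cycling cell. Non-cycling cells outnumber cycling ones in both libraries, so these counts do not measure relatedness. By beta segment, Trbv4 and Trbv15 led in the DMSO library, with 15.5% and 14.2% of cycling cells with a call, and Trbv3 and Trbv13-1 in the STK library, with 9.54% each.

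The comparison of treatments within cycling cells covered 6400 genes that reached 20 CPM and 20 UMIs in whichever library was higher. In the STK library 410 (6.41%) were at least 1.5 times higher and 252 (3.94%) at least 1.5 times lower, and the median log2 ratio was -0.04. Among male cells alone, 469 of 6086 were higher and 494 lower, so the balance between the directions changed. In the stricter set the numbers were 360 and 312 of 6243.

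Few genes of the cell cycle lists passed 1.5 times between the libraries. Of 41 G1/S genes, none was higher and 1 was lower in the STK library, namely Gins3, a subunit of the replication helicase, with 23.0 against 14.0 CPM. None of 41 G2/M and none of 21 chromatin genes passed 1.5 times in either direction, and the medians were -0.13, -0.09 and -0.06. Stmn1, which the gate did not use, had a ratio of 1.16 (1.07 to 1.26). The cells of both libraries were chosen by the same minimum of Mki67 and Top2a UMIs, so the ratios of those 2 genes, 1.00 and 0.898, only describe the choice. The respiratory chain and nucleotide lists also had no member past the limit. In male cells 3 of 41 G2/M genes were lower, against 494 of 6086 among all measured genes, so the count is not read as a trait of the list.

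Histone genes were the exception within the cycle. Of 20 measured members, 9 were at least 1.5 times lower in the STK library and none higher, with a median of -0.54. Hist1h2ae had 1122 CPM in the DMSO and 547 CPM in the STK library, at a ratio of 0.487 (0.462 to 0.515), of 0.571 in male cells and of 0.514 in the stricter set. Hist2h2ac had 90.1 and 45.2 CPM, a ratio of 0.502 (0.413 to 0.609). Hist1h2an, which the list did not hold, had 106 and 45.4 CPM, a ratio of 0.429 (0.356 to 0.516). In male cells 11 of 19 and in the stricter set 8 of 20 were lower. The counts of 2 cycle genes outside the lists were also lower, with 85.3 and 41.9 CPM of Cdk6, the kinase that opens G1, and 104 and 66.0 CPM of Fbxo5.

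Immediate early genes, switched on within minutes by receptor or stress signals, were higher in the STK library for 8 of 15 members and lower for 2, with a median of 0.64. Egr1, a transcription factor, had 32.1 and 110.3 CPM, a ratio of 3.43 (2.71 to 4.40), and 5.47 in male cells. Fosb, an AP-1 subunit, had 16.3 and 55.8 CPM, and Junb, another, 582 and 1094 CPM. Nr4a1, the orphan receptor used as a reporter of receptor signalling, had 151 and 294 CPM. Fos, Jun, Ier2 and Nfkbia, the inhibitor of NF-kB, were the other 4, and Jun had a ratio of 2.01 in all cells but 1.08 in male cells. The 2 lower members were Cd69, with 235 and 154 CPM, and Batf, an AP-1 factor of effector cells, with 129.7 and 72.4 CPM. In male cells the list had 6 higher and 2 lower of 15, with a median of 0.30, and in the stricter set 9 and 1 of 16.

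Checkpoint genes were lower more often than higher in all cycling cells, but not in the stricter set. Of 20 exhaustion list genes, 5 were lower and 2 higher, with a median of -0.30. Lag3 had 70.6 and 32.8 CPM, a ratio of 0.464 (0.371 to 0.581), 0.540 in male cells and 0.933 (0.382 to 2.96) in female cells, where the DMSO value rests on 5 UMIs. Tox and Tox2, factors of the exhausted state, had 106 and 63.1 CPM and 21.8 and 11.1 CPM. Prdm1 and Eomes were the other 2 lower members, while the 2 higher were Nr4a1 and its relative Nr4a3, with 21.8 and 65.6 CPM. Pdcd1 had a ratio of 0.792 (0.723 to 0.867) in all, but 1.16 (1.01 to 1.32) in male and 1.47 (0.958 to 2.36) in female cells. The pooled ratio of Pdcd1 thus lay on the other side of 1 from the ratio within each sex. Havcr2 had a ratio of 0.695 (0.555 to 0.872), 0.713 in male and 0.92 in female cells. In male cells 4 of 20 genes of the list were lower and 2 higher, with a median of -0.07. In the stricter set 2 were lower and 2 higher, with a median of -0.21.

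Of 17 cytotoxic genes, 4 were higher and 1 lower, with a median of 0.18. Gzma had 217 CPM from 67 cells in the DMSO and 1051 CPM from 136 cells in the STK library, at a ratio of 4.84 (4.43 to 5.30). The ratio was 1.82 in male, 1.49 in female and 4.47 in the stricter cells, and 5 cells held 43.7% of its UMIs in the DMSO and 32.1% in the STK library. Gzmc, granzyme C, Serpinb9, which guards against granzyme B, and the receptor Klrc1 were also higher. Prf1 had 118 and 55.2 CPM, a ratio of 0.467 (0.393 to 0.554), 0.291 in male, 0.503 in female and 0.438 in the stricter cells. Gzmb did not pass 1.5 times in all cells, with a ratio of 0.876, but did in female cells, with 0.614 (0.523 to 0.724). Gzmk had 0.703 in all and 0.971 in male cells, but 1.90 (1.34 to 2.77) in female cells, past 1.5 times in the other direction.

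Chemokines went both ways. Ccl4, an inflammatory chemokine, had 665 CPM from 126 cells in the DMSO and 209 CPM from 166 cells in the STK library, at a ratio of 0.314 (0.289 to 0.340). It was 0.285 in male cells and 0.214 in the stricter set, but 0.865 in non-cycling cells. Ccl3, its neighbour in the genome and in function, had 123 and 36.6 CPM, a ratio of 0.298 (0.245 to 0.361), and 0.464 in male cells. Ccl1 had 53.6 and 4.21 CPM, but came from 5 DMSO and 4 STK cells. Cxcl10, an interferon-induced chemokine, had 45.6 and 307 CPM, a ratio of 6.73 (5.56 to 8.21) and of 3.23 in male cells, with 52.9% of the STK UMIs in 5 cells. Cxcl2, a chemokine for neutrophils, had 16.7 and 64.5 CPM, and 5 cells held 95.2% of the DMSO and 61.2% of the STK UMIs. The neutrophil and macrophage sums given above moved with Cxcl10 and Cxcl2, and their part was not tested.

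The other genes highest in the STK library came from 26 to 88 STK cells each. Osgin1, a target of the oxidative stress factor NRF2, had 3.97 CPM from 8 cells and 53.8 CPM from 68 cells, a ratio of 13.6 (7.25 to 28.7), 19.7 in male and 19.5 in the stricter cells. Atf3, a stress-induced factor, had 58.7 and 209 CPM, a ratio of 3.55 (2.99 to 4.26), with 49.3% and 56.6% of its UMIs in 5 cells. The ratio of Atf3 was 3.16 in male and 2.40 in female cells and 28.8 (17.0 to 53.02) in the stricter set, where 14 DMSO UMIs remained and 5 cells held 85.7% of the STK UMIs. Non-cycling cells went the other way, with a ratio of 0.347. Gdf15, a stress cytokine, had 9.92 and 57.6 CPM, but a ratio of 1.16 in male cells. Slpi, a protease inhibitor of neutrophils and epithelia, had 11.1 and 84.9 CPM, with 81.7% of the STK UMIs in 5 cells and a ratio of 0.936 in the stricter set. Ncr1, an NK cell receptor, had 10.7 and 50.1 CPM, a ratio of 12.1 in male and 0.352 in female cells. The NK marker list summed to 114 and 143 CPM, and 4 of its 5 genes were at least 1.5 times higher. Klra8 and Klra4 stood at 0 in the DMSO cycling cells. The other gene, Eomes, also a member of the exhaustion list, went from 99.6 to 62.5 CPM. A UMI of Ncr1, Klrb1c, Klra8 or Klra4 was found in 4.56% of the DMSO and 11.2% of the STK cycling cells. The part of NK RNA was not tested. Ckb, brain creatine kinase, and Ndrg1, a hypoxia-induced gene, had ratios of 4.30 and 4.04, and Ndrg1 had 1.44 in male cells. Of the 12 highest genes, 10 were past 1.5 times in male cells, all but Gdf15 and Ndrg1, 10 in female cells, all but Gzma and Ncr1, and 10 of the 11 with a value in the stricter set, all but Slpi. The female values rest on 14 DMSO cells. The stricter set sets no limit on hepatocyte RNA. Its own 12 highest genes held the keratin genes Krt8 and Krt18, with ratios of 7.53 and 6.86, and the hemopexin gene Hpx, with 5.74. The part of hepatocyte or tumour RNA in the genes higher in the STK library was not tested.

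Heat shock protein 70 genes had the lowest ratios. Hspa1b had 213 CPM from 90 cells in the DMSO and 7.31 CPM from 15 cells in the STK library, at a ratio of 0.0343 (0.0233 to 0.0487). Hspa1a had 161 and 6.87 CPM, a ratio of 0.0427 (0.0287 to 0.0616). The 2 genes are near-identical neighbours on chromosome 17, so the split between them is uncertain. Non-cycling cells had ratios of 0.0355 and 0.0499, about the same. Of 14 heat shock genes, 4 were lower, the others being Hsph1 and Dnajb1, and Atf3, which that list holds, was higher. Spp1, osteopontin, with 55.9 and 27.0 CPM, had 83.7% of its DMSO UMIs in 5 cells and a ratio of 0.916 in the stricter set. Of the 12 lowest genes, 12 were past 1.5 times in male cells, 10 in female cells, all but Ccl1 and Lag3, and 11 in the stricter set, all but Spp1.

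Gpr132, the receptor named by the study, had 43.6 CPM from 77 of the DMSO and 117 CPM from 234 of the STK cycling cells, a ratio of 2.69 (2.19 to 3.34). The ratio was 2.76 in male cells and 2.39 in the stricter set, about as large in both, and 9.36 (2.57 to 77.7) in female cells, from 2 DMSO UMIs. Non-cycling CD8 cells went from 87.8 to 201 CPM, a ratio of 2.28. After thinning, 11% and 21.1% of cycling cells had a Gpr132 UMI, against 32.0% and 65.4% without thinning. In thinned B cells the shares were 8.42% and 20.7%, so the level in cycling CD8 cells was like that of B cells in each library. Soat1 had 24.2 and 30.1 CPM, a ratio of 1.25 (0.914 to 1.71), with an interval that includes 1. Of the 8 measured oxysterol and sterol ester genes, 3 were higher and none lower, the others being Dgat1 and Dgat2, which make triglyceride, with 24.6 and 62.5 CPM and 17.5 and 33.9 CPM. Of 17 cholesterol synthesis genes, 1 was higher and none lower, with a median of 0.18.

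Regulators of the cycle and of trafficking differed for a few genes. Cdkn1a, the p53-induced inhibitor p21, had 102 and 189 CPM, a ratio of 1.86 (1.61 to 2.14). The ratio was 0.741 in male cells and 3.78 in the stricter set, so its direction did not hold in males. Cdkn1c, Btg2 and Tob1 were higher too, and Cdkn2a lower, so 4 of 17 quiescence genes were higher and 1 lower. Ccr7 had 121 and 226 CPM, and Cxcr4, the receptor for a retention chemokine, 42.1 and 84.6 CPM. Icos, a costimulatory receptor, had 29.4 and 79.1 CPM, a ratio of 2.69 (2.09 to 3.51), while Il10ra was lower. Tcf7, with a ratio of 0.966, and Il7r, with 1.08, had intervals that include 1. Of 15 interferon genes, Ifit2, Ifit3 and Rsad2 were lower.

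**Figure D5:**
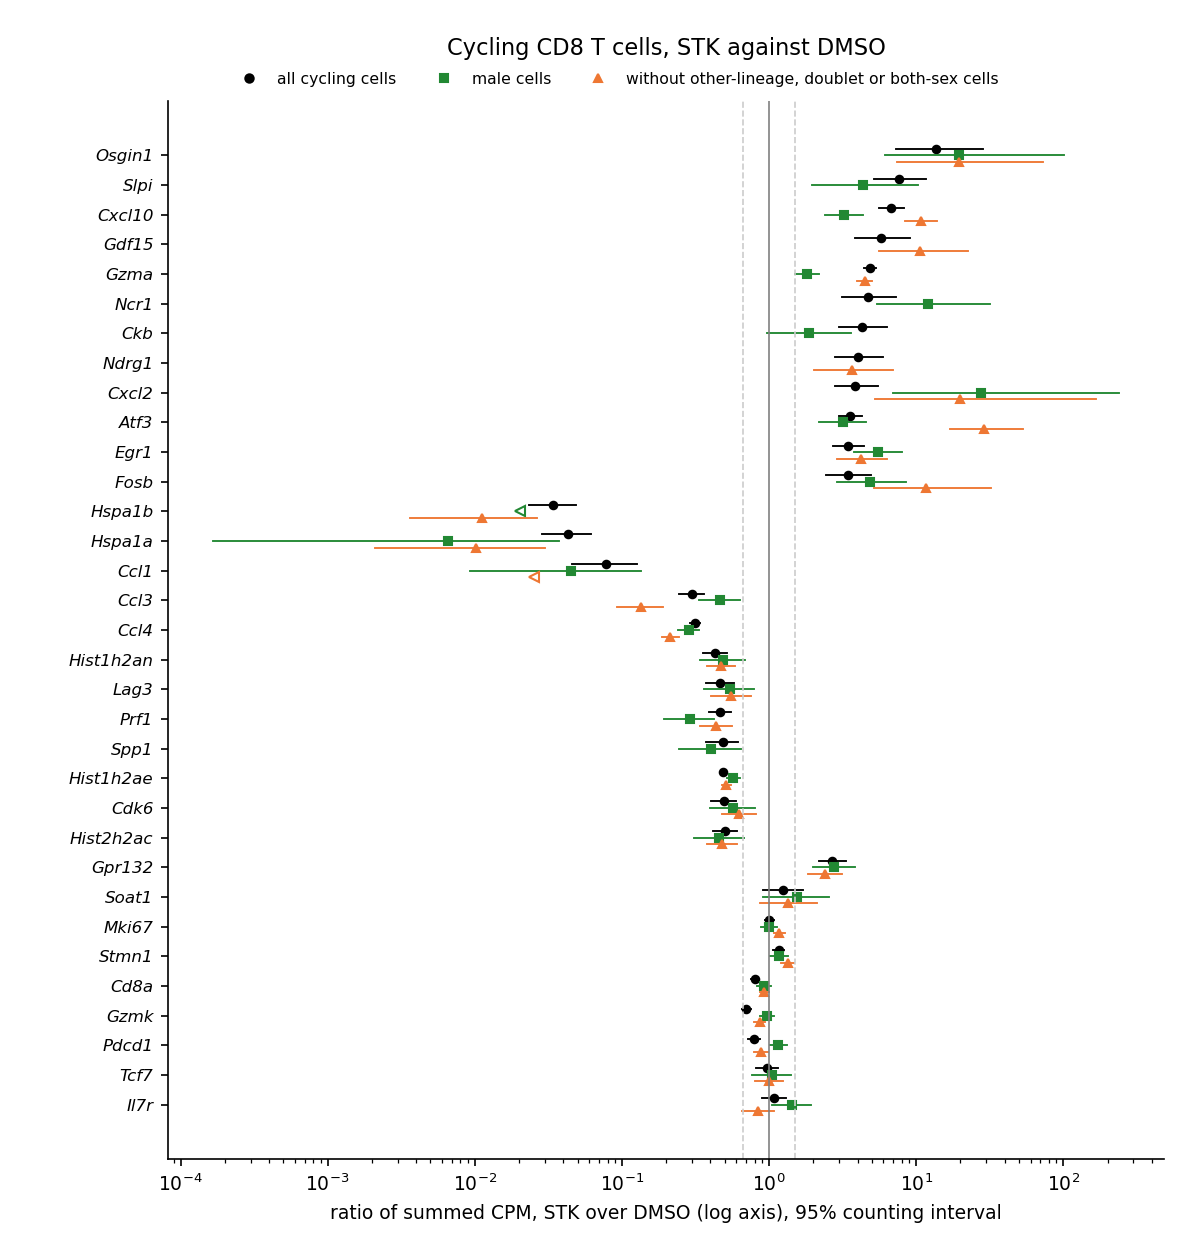
Ratio of summed CPM in cycling CD8 T cells, STK over DMSO (log axis), for the 12 highest, the 12 lowest and 9 further genes, in all cycling cells (black), male cells (green squares) and the stricter set without other-lineage, doublet or both-sex cells (orange triangles), each with a 95% counting interval. Open left-pointing triangles are upper bounds where the STK cells had no UMI, genes under the minimum in a subset have no point, and dashed lines mark 1.5-fold. Gpr132 lies at 2.69, 2.76 and 2.39, while Pdcd1 lies at 0.792 in all and at 1.16 in male cells. Female cells are not drawn.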

How the data were processed

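The deposited values are raw UMI counts per gene and barcode for 32285 genes, written by Cell Ranger 6.0.2 per the file headers, with GRCm38/mm10 per the submitters' processing notes. Per the labels, each treatment has 1 library (5′ droplet chemistry). UMI counts were summed over the cells of a class and library and scaled to a common total (CPM). Shares carry exact Clopper-Pearson intervals, sums exact Poisson intervals and ratios exact conditional binomial intervals, at 95% and for counting error only. A gene counted as measured at 20 CPM and 20 UMIs or more in the higher group (for cycling against non-cycling cells, in each library), and as called at 1.5 times (STK against DMSO) or 2 times in both libraries (cycling against non-cycling).

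Named genes are the 12 highest and 12 lowest by ratio with at least 50 CPM and 50 UMIs, the 12 highest again outside the cell cycle lists, fixed genes, and the members of each of 21 lists that lay furthest from equality or were most abundant. Receptor segments, mitochondrial, ribosomal, sex-linked, red cell, hepatocyte and granule genes and unnamed gene models were left out of the ranking. The members and lists were chosen with earlier results of these data known.

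Doublets were scored with Scrublet in scanpy 1.11.5. Its automatic threshold called 217 cells in the DMSO and 0 in the STK library, so a score of 0.25 was set after that, which marked 396 (3.55%) and 425 (3.92%) cells. Of the cycling CD8 cells that score marked 12.4% in the DMSO and 11.5% in the STK library, against 4.76% and 6.09% of the non-cycling ones. Marked cells were kept in the main values and removed in an alternative. Thinning drew 2000 UMIs per cell without replacement. A cell was female with a Xist UMI and no Y-linked UMI, and male the other way round. Ratios were also computed on simulated gene sums drawn from a Poisson distribution. Those sums had no clumping of UMIs in cells, so they do not test the intervals of genes whose UMIs sit in few cells. Python 3.11.15, numpy 2.4.6, scipy 1.17.1 and pandas 2.3.3 were used. Alternatives covered the UMI limits, sex, doublets, C1q, CD8 and depth limits, scaling, averaging over cells, gene minimums and thinning. Some genes of the lists are counted but not reported here by name.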

Additional observations from a re-analysis of the deposited data

Results flagged for a closer look

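Of 6076 measured genes, 5034 had a cycling over non-cycling ratio on the same side of 1 in both libraries, whatever their intervals. Only the ranked and fixed genes were searched for ratios on opposite sides with both intervals excluding 1. For 10 of these the cycling cells lay above the non-cycling cells in 1 library and below them in the other. The difference between the libraries was not tested in any of them. Slpi had a cycling over non-cycling ratio of 0.381 in the DMSO and 2.16 in the STK library. The chemokine Cxcl10 had 0.309 and 1.54, and Cxcl2 0.269 and 1.26. Gzma had 0.495 and 2.18. The stress and immediate early factors Atf3 and Fosb had 0.398 and 4.08, and 0.651 and 1.23. The other direction was seen for Lag3, with 1.45 and 0.556, for Prf1, with 1.34 and 0.646, for Pdcd1, with 1.88 and 0.801, and for Gzmb, with 1.36 and 0.824. These are ratios of summed CPM. Slpi, Cxcl10, Cxcl2, Gzma, Atf3, Fosb, Lag3 and Prf1 were ranked by their STK over DMSO ratio in the same cycling cells. That choice favours such a turn, so the flags describe these genes and are no check. At matched depth the shares of cells with a UMI did not turn for Pdcd1, Gzmb and Gzma, and no order is read from those 3 genes. The shares of Lag3 and Prf1 turned, but with overlapping intervals in each library, and no order is read from them.

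Within cells of a sex, also untested, the STK over DMSO ratio of the cycling share was 1.84 in female and 0.785 in male CD8 cells. Ncr1 in cycling cells had a ratio of 0.352 in female and 12.1 in male cells, from 8 DMSO and 32 STK cells with a UMI in all.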

How the results depend on the processing

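The STK over DMSO ratio of the cycling share lay between 0.966 and 1.20 under every alternative run except within a sex, where it was 1.84 in female (15.2% and 27.9% in DMSO and STK) and 0.785 in male cells (24.9% in DMSO). The shares were 31.9% and 33.3% at 1 UMI or more, 13.4% and 15.9% at 4 or more, and 17.1% and 16.5% without cells with other-lineage RNA, doublet score or both sexes, a removal added after seeing the data, as was that of both-sex cells alone. Thinned shares were 5.79% and 6.41% at 1000 UMIs, 16.3% and 19.5% at 3000, 22.8% and 22.4% at 1 UMI or more, 8.43% and 16.0% in female (ratio 1.90) and 13.6% and 9.45% in male cells (ratio 0.693).

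Genes 2 times lower in cycling cells numbered 24 at 1 UMI or more, 136 at 4 or more, 43 as a mean over cells, 147 with the other scaling, 155 in male and 37 in female cells, and 129 and 51 with a minimum of 10 or of 50 CPM and UMIs. Genes 2 times higher numbered 137 in female cells and 298 at a minimum of 50. Genes 1.5 times higher in STK cells numbered 1159 in female cells and 692 and 202 at minimums of 10 and 50, and genes lower 153 in female and 494 in male cells and 453 and 100 at those minimums. Among ranked and fixed genes past 1.5 times in all cells, the ratio turned for Ncr1 in female cells (0.352) and for Slpi without cells with other-lineage RNA (0.936). Genes under that limit were not counted as turned, though some crossed 1. Among them were Pdcd1 (0.792 in all, 1.16 in male cells), Gzmk (0.703 and 1.90 in female cells) and Cd8b1 (0.809 and 1.56 in female cells). Cdkn1a, which was not in this count, crossed 1 in male cells. A higher or lower minimum tests fewer or more genes, and the cause of the other changes was not tested. Of the named genes' other STK over DMSO values, 283 moved by less than counting error and 134 by more. No paired analysis was possible because the labels give no replicate numbers and each treatment has 1 library. Only 14 female DMSO cells cycled, which limits the female values.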
